A study of Mus musculus with 142 samples.

Results

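The earliest 10% of the mESC genome was selected on mean replication timing, as the 50 kb windows whose mean log2(E/L), the log2 ratio of early over late S-phase reads, lay at or above the 90th percentile of all windows. Each mean was taken over all columns of the table, that is over both alleles of all libraries, and a window needed a value in at least 100 of the 138 columns. Of 49264 windows on the 19 autosomes, 42029 had enough values, and 4203 of these were members. The threshold was 1.27. The members spanned 1.27 to 1.45 with a median of 1.32, while all windows spanned −1.58 to 1.45 with a median of 0.05. Just inside the threshold lay chr3:30850001-30900000, chr5:108600001-108650000 and chr11:104050001-104100000 (1.27224, 1.27226 and 1.27228). Just outside lay chr16:4050001-4100000 (1.27221) and windows of chromosomes 7 and 11 (both 1.27216). These means chose the members and are given as a description only.

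The cells were F121-9, a hybrid mESC line with a musculus and a castaneus homolog of each autosome, grown in 2i and LIF. In all samples new DNA was labelled with 100 uM BrdU for 2 h. All profiles came from 53 CRISPR deletion clones of 26 lines, with 1 to 5 clones a line, and none came from cells without a deletion. All deletions lie in the Dppa2/4 domain of chromosome 16, mostly on the musculus allele, and 10 clones carry a deletion on the castaneus allele (16 of its 69 columns). A line is named for what it lacks: segments A, B or C, which hold early replication control elements, single sites in them bound by OCT4, SOX2 and NANOG (OSN), transcription start sites (TSS), the site Z, or left or right parts of segment C (CL, CR). The lines were A.B.COSN123, A.BOSN1.COSN123, A.BOSN12.COSN123, A.BOSN12.BTSS.COSN123, A.COSN12, A.COSN123, AOSN.B.COSN123, AOSN.BOSN12.COSN123, AOSN.COSN12, AOSN.COSN123, ATSS.BTSS.CTSS, BOSN1.COSN123, BOSN12.COSN123, BTSS, BTSS.CTSS, CL20k, COSN1, COSN1.2.8k, COSN12, COSN123, CR11.8k, CR13.4k, CR14.6k, CTSS, Z.AOSN.COSN123 and Z.B.C. Many of the lines with COSN123 were made from 1 founder clone, all clones share 1 hybrid line, and strain and parental origin of a homolog cannot be told apart. Values were missing over a whole chromosome of 1 allele in some clones, most often for chromosome 11 of castaneus (6 of 53 clones). How many reads each window value rests on is unknown.

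In mammalian cells, replication starts at many sites whose firing is spread over S phase, and neighbouring sites fire at similar times, so that the genome replicates in large domains. Early domains are known to be rich in genes and in G and C bases and to lie in open chromatin in the nuclear interior, and late domains to lie at the nuclear lamina. The early ends of the profiles, which had been scaled and quantile-normalized, had nearly the same height. The 90th percentile of a column lay between 1.27 and 1.34 in all 138 columns (SD 0.0148), whereas the column medians ranged from −0.18 to 0.31 (SD 0.124). A shift of all early DNA in 1 library may not be visible in such values.

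The highest single windows overlapped gene bodies and held no protein-coding start, while windows with such a start reached 1.43. The highest of all, chr16:18150001-18200000, overlaps Rtn4r, which encodes a receptor for myelin inhibitors of axon growth, and had a mean of 1.45. On its musculus allele the clones ranged from 1.02 to 1.76 with a median of 1.41 (SD 0.178, n = 51 clones), and on its castaneus allele from 1.14 to 1.86 with a median of 1.46 (SD 0.165, n = 51). The windows with the highest means of the next 4 domains had means of 1.45, 1.44, 1.44 and 1.44. They overlapped Kcnn3 (a calcium-activated potassium channel) on chromosome 3, and Tmem63c and Ngb (neuroglobin) on chromosome 12. The other windows overlapped Hmcn2 on chromosome 2 and Cux2 (a homeobox factor of cortical neurons) on chromosome 5. None of these 5 windows held the start of a protein-coding gene. In each of them the lowest clone of 1 allele came down to between 0.91 and 1.14, which is below the threshold.

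To show the DNA of this compartment, the 250 bases before the start of 4 genes are printed, those of the 4 domains whose gene-bearing windows had the highest means (RefSeq promoters, GRCm38.p6, plus strand for all 4). CG dinucleotides are in capitals. They belong to Spg21 (chr9:65460687-65460936), Neurl1b (chr17:26414609-26414858), Entpd8 (chr2:25080073-25080322) and Vash1 (chr12:86678450-86678699), and the windows they lie in all had a mean of 1.43.
Spg21: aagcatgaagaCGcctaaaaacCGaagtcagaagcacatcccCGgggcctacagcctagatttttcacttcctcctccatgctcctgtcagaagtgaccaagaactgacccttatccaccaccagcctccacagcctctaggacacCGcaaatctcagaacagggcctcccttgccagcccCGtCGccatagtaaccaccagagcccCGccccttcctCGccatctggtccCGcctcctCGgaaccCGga
Neurl1b: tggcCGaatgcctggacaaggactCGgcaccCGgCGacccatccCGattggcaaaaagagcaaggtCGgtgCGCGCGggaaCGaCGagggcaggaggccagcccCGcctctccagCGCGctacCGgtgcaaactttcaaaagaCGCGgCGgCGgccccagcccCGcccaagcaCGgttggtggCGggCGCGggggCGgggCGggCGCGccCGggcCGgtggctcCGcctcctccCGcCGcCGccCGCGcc
Entpd8: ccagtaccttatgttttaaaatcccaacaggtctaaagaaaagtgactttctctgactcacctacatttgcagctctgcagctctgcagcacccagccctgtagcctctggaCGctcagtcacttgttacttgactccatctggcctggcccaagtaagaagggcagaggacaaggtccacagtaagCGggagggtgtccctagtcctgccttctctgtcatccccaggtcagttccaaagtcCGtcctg
Vash1: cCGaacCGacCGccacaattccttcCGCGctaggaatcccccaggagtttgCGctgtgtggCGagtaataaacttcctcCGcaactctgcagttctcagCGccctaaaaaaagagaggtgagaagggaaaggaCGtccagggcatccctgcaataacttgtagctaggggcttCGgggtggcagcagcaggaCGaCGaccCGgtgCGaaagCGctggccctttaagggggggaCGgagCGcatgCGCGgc
The promoters held 11, 36, 3 and 20 CG dinucleotides, so that CpG-poor and CpG-rich starts were both found in the earliest windows. Over the 4242 RefSeq promoters of protein-coding genes in member windows the median was 13 CG in 250 bases (25th to 75th percentile 5 to 21), against 11 in all 18108 promoters, 14 in the next earliest 10% of windows and 2 in the 292 promoters of the latest 10%. At least 10 CG were found in 60.9% of the promoters of members, in 53.8% of all promoters and in 23.3% of those of the latest 10%. In promoter CpG the members thus lay beside the tenth that follows them and far from the late end.

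Chromosome 11 held the largest share of very early DNA. Of its 2281 windows, 494 were members (21.7%). Chromosomes 19 (15.6%), 5 (15.1%) and 2 (13.3%) followed, and chromosomes 3 (3.02%), 13 (4.45%), 10 (6.13%) and 1 (6.84%) had the smallest shares. When the earliest 10% was taken in each clone on its own, the share of chromosome 11 ranged from 14.7% to 31.2% with a median of 20.7%, and that of chromosome 3 from 2.65% to 6.20% with a median of 4.00% (n = 53 clones each). The clones of these 2 chromosomes did not overlap. Chromosome 19, by contrast, ranged from 9.37% to 17.7% and overlapped with most others. Chromosome 11 also had the highest median GC content (43.8%, against 40.5% on chromosome 3), and the median timing of all its windows was 0.84, against −0.49 on chromosome 3. The share of chromosome 11 depended on how strict the filter for missing values was. Its windows have values in at most 130 columns, because 8 columns lack the whole chromosome. With values required in 130 columns, 1075 of its windows remained and 7.35% of them were members, and chromosome 5 led with 16.7%. On the musculus columns alone, where no clone lacked chromosome 11, its share was 22.4% and again the highest. In the 47 clones with castaneus values there, the median share was 20.7%, as in the 6 clones without them.

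**Figure D1:**
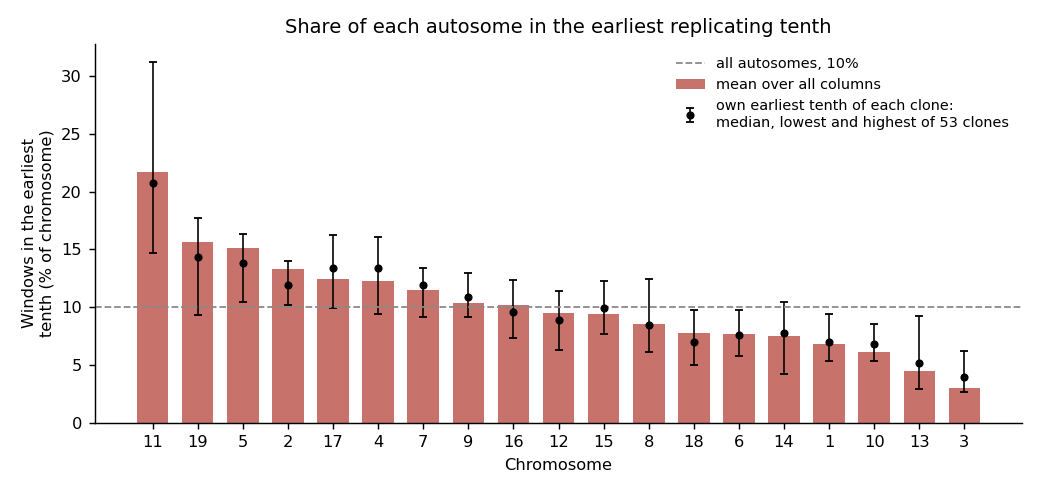
Share of the windows of each autosome (x axis) that belong to the earliest 10% (y axis, percent of the windows of that chromosome). Bars give the share by the mean over all columns, points and whiskers the median, lowest and highest of 53 clones when the tenth is taken in each clone, and the dashed line the 10% of all autosomes. Chromosome 11 (21.7%) and chromosome 3 (3.02%) lie at the ends, and their clone ranges do not overlap.

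The members formed 961 domains, that is runs of adjacent windows. Their median length was 150 kb (25th to 75th percentile 100 to 300 kb), the longest was 1300 kb, and 140 were single windows. The latest 10%, which has the same number of windows, was split into 1319 domains with a median of 100 kb, of which 34.6% were single windows and the longest spanned 1550 kb. Windows with too few values also break a run. The median window of the latest 10% had values in 116 columns, against 134 in members. The part of missing values in this difference was not tested. In each clone on its own, the earliest 10% formed 748 to 1565 domains (median 1161), with a median length of 100 to 200 kb. Since the profiles had been smoothed over 300 kb, neighbouring windows share reads, and short domains are not independent of their flanks. The median gap between domains on a chromosome was 250 kb, but 120 of 942 gaps reached 5 Mb. The longest gap, 55.65 Mb, was chr16:35850001-91500000. It contains the Dppa2/4 domain.

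Timing fell slowly outside the domains. The median over all edges was 1.30 in the edge window and 1.24 at 50 kb outside. Farther out, many windows belong to the next domain, 34.8% of them at 200 kb and 22.6% at 1000 kb. Over the other windows alone the median was 1.13 at 200 kb, 0.88 at 500 kb and 0.64 at 1000 kb. At 1000 kb, 31.6% of these windows were late, with a mean below 0. Members made up 13.6% of the windows in the last 5 Mb of the chromosomes. In the first 10 Mb, where the mouse centromere lies, they made up 7.85%. These spans differ in length, so the ends are not ranked.

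**Figure D2:**
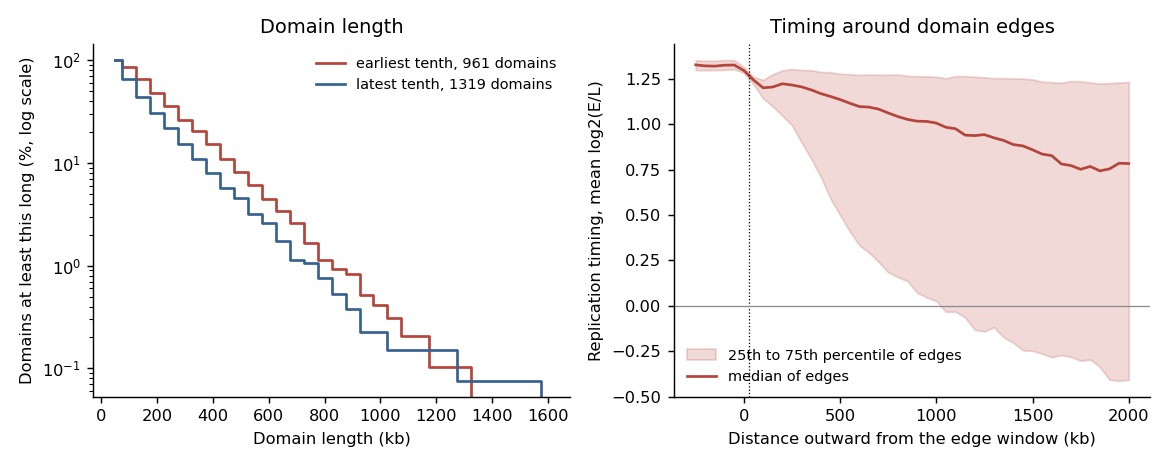
Left, percent of domains (log scale) that are at least as long as the length on the x axis (kb), for the earliest and the latest 10% of the windows. Right, mean log2(E/L) (y axis) against distance outward from the edge window of the early domains (x axis, kb), as the median and the 25th to 75th percentile of edges, with the border of the domain dotted. Early domains are longer at most lengths, and the median at 1000 kb outside is 1.01, where 22.6% of the windows are members of other domains. Windows with too few values break runs, and their part in the difference of length was not tested.

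The 5 longest domains hold genes of many functions. The longest, chr10:61450001-62750000 (1300 kb), has 23 protein-coding starts. Among them are Hk1 and Hkdc1, enzymes of the hexokinase family that begins glycolysis, Ddx21 and Ddx50, RNA helicases of the nucleolus, and Neurog3, a factor of endocrine progenitors of the pancreas. Its mean over the domain ranged over the clones from 1.10 to 1.45 with a median of 1.35 on musculus (SD 0.0718, n = 53), and from 1.14 to 1.45 with a median of 1.35 on castaneus (SD 0.0677, n = 53). The alleles overlapped fully. The second, chr5:23750001-24900000 (1150 kb, 26 starts), holds Kcnh2, a potassium channel of the heart, Nos3, the nitric oxide synthase of endothelium, Cdk5, a kinase of neurons, and Rheb, the GTPase that activates mTOR. The third, chr11:78350001-79400000 (1050 kb, 20 starts), includes Foxn1, a factor of thymic epithelium, Nos2, the inducible nitric oxide synthase, and Nf1, a GTPase-activating protein for Ras. Its clones ranged from 1.13 to 1.62 on musculus and from 1.10 to 1.42 on castaneus, where 47 clones had values. The fourth, chr16:17300001-18300000 (1000 kb), was the densest, with 34 starts that include Dgcr8, a cofactor of microRNA processing, and Ranbp1, a regulator of the Ran GTPase, and it also held the highest window of the genome. The fifth, chr5:32900001-33850000 (950 kb, 15 starts), holds Fgfr3, a receptor for fibroblast growth factors, Nsd2, a histone methyltransferase, and Slbp, which binds the stem-loop of histone mRNAs. Several of these genes act in tissues other than ESCs.

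The largest allele difference near each of these 5 domains varied widely in size. Within the domain on chromosome 16, the mean difference of musculus minus castaneus lay between −0.06 and 0.07 in every window. In chr16:19100001-19150000, 825 kb beyond its edge, the musculus allele ranged from 0.22 to 1.16 over the clones with a median of 0.60, and the castaneus allele from −1.68 to −0.73 with a median of −1.10. The alleles did not overlap, and the difference of 1.77 (SE 0.037, limma adjusted p = 8.95e-46, musculus earlier in 50 of 50 clones) was the largest in favour of musculus among all windows tested. Near the longest domain of chromosome 5, chr5:26100001-26150000 differed the other way (−0.92, SE 0.0413, adjusted p = 1.64e-27, castaneus earlier in 45 of 45 clones), whereas the 23 windows inside the domain differed by −0.08 to 0.07. Near the other 3 domains the largest differences were −0.18 on chromosome 10, below the size of 0.25, 0.33 on chromosome 11 and 0.44 at the fifth domain. These flanking windows were picked as the largest difference within 2 Mb of a domain's centre, and small differences inside the domains are favoured by the rule, which needs both alleles early.

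**Figure D3:**
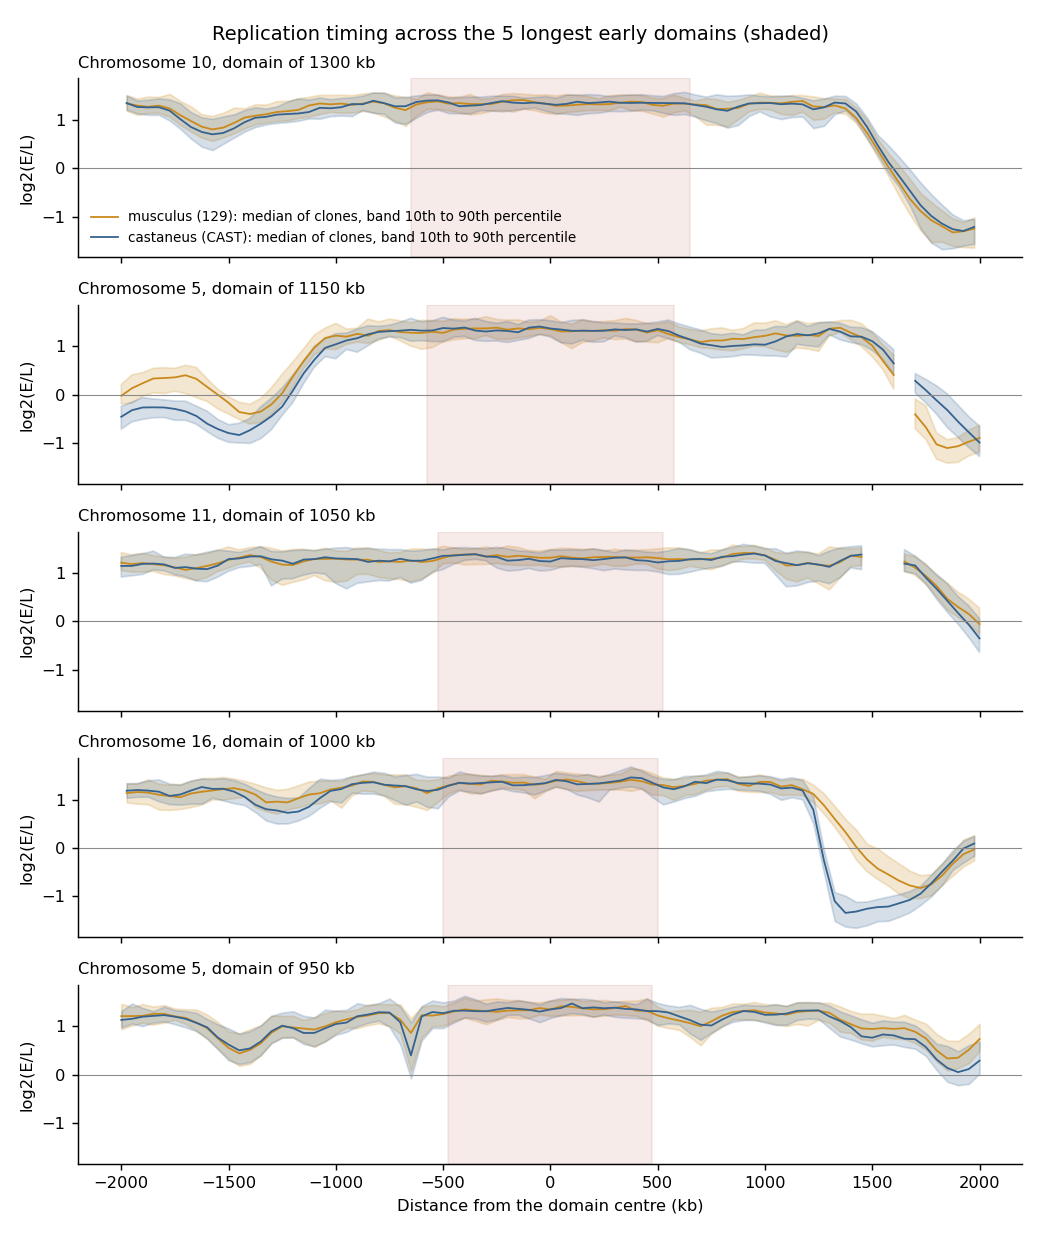
log2(E/L) (y axis) against distance from the centre of each of the 5 longest early domains (x axis, kb; domains shaded), for the musculus and the castaneus allele, as the median and the 10th to 90th percentile of up to 53 clones. Both alleles run together through all 5 domains, and on chromosome 16 they part outside the domain, where the difference reaches 1.77. Windows with under 20 clones are left blank.

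Gene density and base composition of the members were those of gene-rich DNA. Member windows had a median GC content of 46.8% against 41.8% in all windows and 38.1% in the latest 10%, and 300 of them (7.14%) lay below the median of all windows. They had 12.4 CpG per kb in the median, against 8.18 in all windows, and 20.7 protein-coding starts per Mb against 8.93. In GC content and in starts per Mb, members exceeded all windows on 19 of 19 chromosomes. Members held 4342 of 18765 protein-coding starts (23.1%). Gene density did not peak with timing, since the next earliest 10% had 21.2 starts per Mb, and 1683 members (40.0%) had no protein-coding start and 452 (10.8%) overlapped no protein-coding gene at all. Among the members themselves, the fifth with the lowest means had 23.0 starts per Mb and the fifth with the highest means 18.6, while their median GC content rose from 45.9% to 48.0%. The 5 longest stretches of members without a protein-coding gene were 200 to 400 kb long, and the longest of them, chr5:64400001-64800000, reached 1.34. Of the window with the most starts, an interferon gene cluster on chromosome 4 with 12, the mean was 0.32. The densest member, chr7:30550001-30600000 with 9 starts, includes Kmt2b, a histone methyltransferase, and Psenen, a subunit of gamma-secretase, and had a mean of 1.29.

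**Figure D4:**
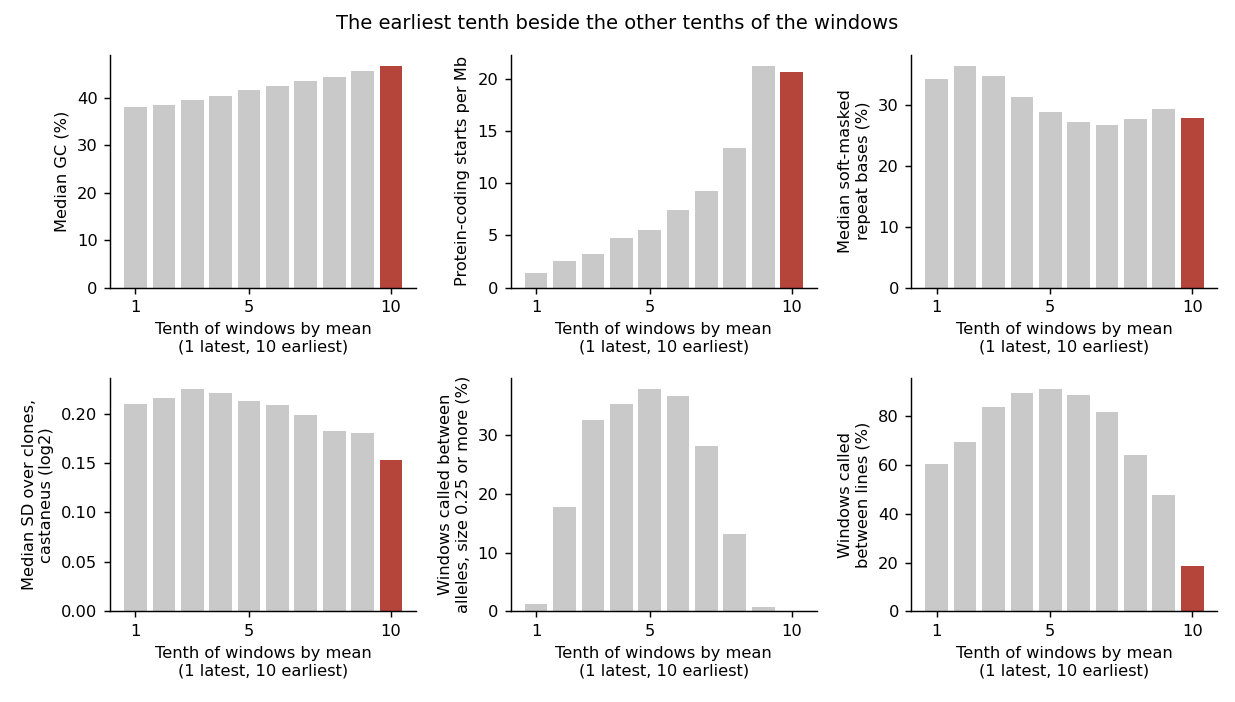
The windows in 10 groups by mean log2(E/L) (x axis, 1 latest to 10 earliest, the earliest in red), with median GC content, protein-coding starts per Mb, median share of soft-masked repeats, median SD over clones on the castaneus allele, percent of windows called between musculus and castaneus with a size of at least 0.25, and percent called between cell lines. GC content is highest in the earliest 10% (46.8%), starts per Mb are highest in the group before it (21.2), and the shares of called windows are lowest in the earliest 10% (0% and 18.7%). The groups were formed on the mean of these same alleles and clones, which limits differences in the earliest 10%, so its shares of called windows are a description only.

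Gene families were placed unevenly. Against the 23.1% of all protein-coding genes that start in members, 30 of 39 Hox genes did so (76.9%), but they share 13 windows in 4 clusters. All 11 Hoxa genes (means 1.32 to 1.36), all 10 Hoxb genes (1.28 to 1.35) and all 9 Hoxc genes (1.29 to 1.36) were members, and none of the 9 Hoxd genes was (0.83 to 1.01). Over the Hoxa windows the clones ranged from 1.01 to 1.58 on musculus (median 1.36) and from 1.02 to 1.67 on castaneus (median 1.37). Over the Hoxd windows they ranged from 0.15 to 1.34 on musculus (median 0.98) and from 0.22 to 1.40 on castaneus (median 0.96). The ranges overlapped, but on both alleles the Hoxd median lay below the lowest clone of Hoxa. Hox genes pattern the body axis and are mostly silent in ESCs.

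Genes of basic cell functions were found in members at different rates. Of the proteasome genes, 18 of 37 started in members (48.6%), led by Psmb2 (1.37), Psmd5 (1.36), Psmb6 (1.36) and Psmc3 (1.34). Of the mitochondrial ribosomal proteins 24 of 73 did (32.9%), with Mrpl58 highest (1.39). Of the cytosolic ribosomal proteins only 10 of 76 did (13.2%), among them Rpl35a (1.34) and Rpl18 (1.30), although only 1 of the 76 had a negative mean and their median was 1.19. Among replication factors, 14 of 48 were in members (29.2%). They include Pold2 (1.37), a subunit of DNA polymerase delta, Clspn (1.35), which encodes the checkpoint mediator claspin, Orc6 (1.34), a subunit of the origin recognition complex, and Rpa1 (1.33), which binds single-stranded DNA. Of the cyclins and kinases, 4 of 13 were in members: Ccne2 (1.35), Ccnb2 (1.32), Ccnd1 (1.31) and Ccne1 (1.30). No share of a list was tested against that of all genes.

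Of the factors of pluripotency, 3 of 21 started in members: Esrrb (1.34) and Utf1 (1.30), a transcription factor and a chromatin factor of ESCs, and Lin28a (1.29), an RNA-binding protein. At the window of Esrrb the clones ranged from 1.05 to 1.56 on musculus (median 1.30) and from 1.05 to 1.65 on castaneus (median 1.35). Klf4 lay just outside at 1.27. None of the 21 had a negative mean, and their median was 1.22. Of the zinc finger proteins, 94 of 327 were in members (28.7%), with Zfp768 (1.41) and Zfp747 (1.39) highest.

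Tandem families of receptors and structural proteins were mostly elsewhere. Of the olfactory receptors, 11 of 835 started in members (1.32%). They were 4 of the 5 on chromosome 8, among them Olfr374 (1.39), 4 of the 82 on chromosome 11 and 1 each on chromosomes 5, 10 and 14. Of 201 vomeronasal receptors and of 52 replication-dependent histone genes, none did. The histone gene windows nearest the threshold, with Hist1h2ag and Hist1h4i, had a mean of 1.14. Of the defensins, peptides of innate immunity, 11 of 43 were in members, and these were the 11 of the cluster on chromosome 2, among them Defb36 (1.35), while the 25 on chromosome 8 had a median of −0.24. Of the keratins and keratin-associated proteins, counted as 1 list, 8 of 110 were in members. All 8 were keratins, 5 on chromosome 11 and 3 on chromosome 15, with Krt14 and Krt16 highest (both 1.37). Of the protocadherins, 2 of 64 were, Pcdh12 (1.38) and Pcdh1 (1.32). Of the very long neuronal genes, 1 of 26 started in a member, Ctnna3 (1.29), and 20 had a negative mean. Genes of a tandem cluster share windows, so the counts are of genes and not of separate regions.

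**Figure D5:**
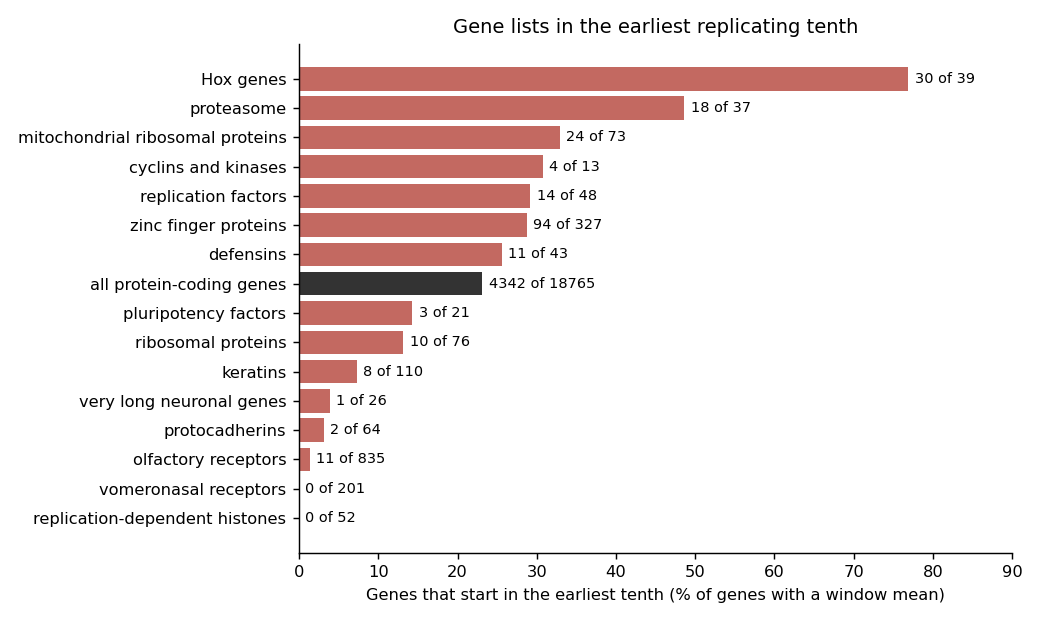
Percent of the genes of each list (y axis) that start in a window of the earliest 10% (x axis), with the number in members of the number with a window mean beside each bar. All protein-coding genes (black) are at 23.1%, Hox genes at 76.9%, and vomeronasal receptors and replication-dependent histones at 0%. The list of keratins includes the keratin-associated proteins.

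The Dppa2/4 domain, where all deletions were made, was early but no member. The windows of Dppa2, Dppa4 and Morc1, the former both markers of pluripotency and the latter a gene of spermatogenesis, had means of 0.70, 0.61 and 0.77 over all columns. At Morc1 the musculus alleles, most of which carry a deletion, ranged over the clones from −0.81 to 1.35 with a median of 0.66. All castaneus alleles ranged from 0.23 to 1.43 with a median of 1.11. Those of the clones without a castaneus deletion ranged from 0.88 to 1.43 with a median of 1.12 (n = 42), and their mean of 1.14 lay at the 78.6th percentile of all windows. The nearest early domain, chr16:35400001-35850000, was 12.5 Mb away. No window of the domain was a member.

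Membership of a given window was less stable than the group as a whole. A member was in the earliest 10% of a median of 53.5% of the columns in which it had a value (lowest 30.6%), and no member was so in 90% of them. Of all windows, 15939 (37.9%) were in the earliest 10% of at least 1 column. The earliest 10% taken in a clone alone contained 35.9% to 75.5% of the members (median 61.2%, n = 53 clones). The median over the members ranged from 1.18 to 1.42 over the clones with a median of 1.34 (SD 0.0482). The members were chosen on these same clones, so their height is a description only. For the next earliest 10% the clones ranged from 1.00 to 1.31 (median 1.24), and for the latest 10% from −1.55 to −1.13 (median −1.42). The clones of members and of the next 10% overlapped.

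Members varied less between clones than other windows. The median SD over clones was 0.153 on musculus and 0.153 on castaneus, against 0.200 and 0.202 in all windows, 0.178 and 0.180 in the next earliest 10% and 0.211 and 0.209 in the latest 10%. It was lower in members than in all windows on 19 of 19 chromosomes on both alleles, and 417 members (9.92%) had an SD on castaneus above the median of all windows. Seen clone by clone, the median deviation from the mean of all clones was smaller in members than in all windows in 50 of 53 clones. Members at the edge of a domain (1782 windows) had a median SD of 0.160 on castaneus, and inner members (2421) 0.149. The SD fell further within the members, from 0.168 in the fifth with the lowest means to 0.141 in the fifth with the highest. The early ends of all columns had nearly the same height after the normalization, and its part in this result was not tested. Members were also chosen on a high mean over these same clones, which leaves less room for low values. The smaller spread of members is therefore a description only. The largest SDs lay near the ends of chromosomes. At chr16:98050001-98100000, with A630089N07Rik, the clones ranged from −0.21 to 4.93 on musculus (median 1.31, SD 0.855) and from −0.51 to 5.50 on castaneus (median 1.35, SD 0.929). It is the only member with values over 4 in size, of which it had 2 of the 82 in the table. Chr15:103900001-103950000 (SD 0.639 on musculus and 0.585 on castaneus) and chr5:151700001-151750000 (0.40 and 0.49) came next.

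The alleles of the members replicated at nearly the same time. The difference of musculus minus castaneus was taken in each clone and tested against 0 with limma, and a window was called at an adjusted p of 0.05 and a mean difference of at least 0.25. None of the 4203 members was called, where 20.4% of the 41989 windows tested were (9.22% earlier on musculus and 11.1% earlier on castaneus). At an unadjusted p of 0.05 and the same size the count was also 0. Without the threshold on size, 344 members were earlier on musculus and 404 earlier on castaneus, together 17.8%, where 28.6% and 34.9% of all windows were, together 63.5%. The split turned to 583 and 218 when each allele was centred on its median, so no direction is read from it. With the replicate number as a block, on single libraries, 373 members (8.87%) were called, against 52.5% of all windows. With a size of 0.1, a setting chosen after the data were seen, 101 members (2.40%) were called, against 47.9% of all windows. The median absolute difference was 0.0255 in members, 0.0406 in the next earliest 10%, 0.0482 in the latest 10% and 0.0936 in all windows. It was lower in members than in all windows on 19 of 19 chromosomes, and within single clones in 53 of 53. The rule limits these differences, because a window needs both alleles near the top to be a member. With 1 allele at the 99th percentile of a single column (1.57), the other can be no lower than 0.98, a difference of 0.59. The rule acts on means over many columns, and the highest window mean over both alleles was only 1.45. The room for a difference was thus probably smaller than 0.59, and the count of 0 at a size of 0.25 is a description only. The small shares at both ends of the timing range are seen in the plot of the windows in 10 groups.

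The largest differences among members reached an adjusted p of 0.05 but not the size of 0.25. In chr13:97350001-97400000, with no protein-coding gene, the musculus allele ranged over the clones from 0.92 to 1.74 (median 1.41) and the castaneus allele from 0.76 to 1.53 (median 1.19). The ranges overlapped, and musculus was earlier in 44 of 51 clones (difference 0.21, SE 0.0304, adjusted p = 1.08e-08). In chr17:71000001-71050000, where Myl12a and Myl12b, light chains of non-muscle myosin, and Myom1, a protein of the sarcomere, start, musculus was earlier in 41 of 51 clones (0.18, SE 0.029, adjusted p = 1.61e-07), and in chr19:37450001-37500000 in 39 of 52 (0.17, SE 0.0293, adjusted p = 1.04e-06). castaneus was earlier in chr1:172400001-172450000, again without a protein-coding gene. There the musculus allele ranged from 0.97 to 1.51 (median 1.197) and the castaneus allele from 0.99 to 1.72 (median 1.40), and musculus was earlier in only 6 of 53 clones (−0.20, SE 0.0233, adjusted p = 2.26e-11). Chr3:51500001-51550000, which overlaps Setd7, a lysine methyltransferase, also favoured castaneus (−0.18, adjusted p = 8.93e-06). So did chr5:134250001-134300000, which overlaps Gtf2i, a general transcription factor (−0.16, adjusted p = 4.24e-06). The ranges of both alleles overlapped in all 6 windows.

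Taking the earliest 10% on each allele alone gave lists that shared most windows. Of 4201 windows by the musculus columns and 4187 by the castaneus columns, 3203 were the same (76.2% and 76.5%). Where the lists differed, the other allele was mostly just below the threshold, with a median of 1.25 in both directions, but in 30 windows early on musculus alone and 25 early on castaneus alone the mean of the other allele was under 1. Among these were chr3:51700001-51750000 at Maml3, a coactivator of Notch signalling, with 1.31 ± 0.115 on castaneus and 0.27 ± 0.205 on musculus (SD, n = 53 clones each), and chr11:30550001-30600000 at Acyp2, with 1.30 ± 0.177 on musculus (SD, n = 53) and 0.50 ± 0.238 on castaneus (SD, n = 47). Neither window belonged to the members, since the mean of both alleles was too low. These windows were chosen for their difference, which is given as a description.

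Outside the domains, windows that were no members were called between the alleles with a size of 0.25 in 0.168% of cases at 50 kb, 6.28% at 200 kb, 19.1% at 650 kb and 21.2% at 2000 kb, against 20.4% of all windows. The low values next to a domain share reads with members through the smoothing over 300 kb, and the rule holds the alleles of members together, so the rise is a description only.

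The cell lines differed in a smaller share of members than of all windows, which is a description only. Members were chosen on a high mean over these same clones, which leaves less room for a low line. The moderated F-test of limma over 46 clones of 19 lines, with the mean of both alleles per clone, called 787 of 4203 members (18.7%), where 69.5% of all 42029 windows were called. In the next earliest 10% 47.54% were called and in the latest 10% 60.3%. Within the members the share fell from 32.3% in the fifth with the lowest means to 4.76% in the fifth with the highest. The range between the highest and the lowest line was 0.37 in the median over members and 0.55 over all windows. The count rested in part on 1 line. ATSS.BTSS.CTSS, with 3 clones, was the lowest line in 425 of the 787 windows (54.0%) and in 35.3% of all members. Without this line 354 members were called, against 62.2% of all windows. Its median over the members was 1.21, the lowest of the 19 lines, and Z.AOSN.COSN123 followed at 1.26, while CR13.4k was the highest at 1.38. Clones differed within ATSS.BTSS.CTSS and Z.AOSN.COSN123. The own earliest 10% of ATSS.BTSS.CTSS clones A1, A8 and C4 contained 38.4%, 39.5% and 59.3% of the members. For Z.AOSN.COSN123 it contained 62.9% in clone A9 and 35.9% in clone B4. Over all windows the median of ATSS.BTSS.CTSS was 0.01, within the range of the others. The labels give no batch, so line and batch cannot be told apart.

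The 3 members with the smallest adjusted p between lines, chosen after their values were seen, all had the same 2 lines at the bottom. In chr2:71200001-71250000, where Dync1i2, a subunit of the dynein motor, starts, ATSS.BTSS.CTSS had a mean of 0.64 and Z.AOSN.COSN123 of 1.13, and the highest line, Z.B.C, had 1.48 (adjusted p = 1.97e-05). In chr7:19000001-19050000, with Sympk, a scaffold of mRNA polyadenylation, and Foxa3, they were at 0.87 and 0.85 (adjusted p = 3.77e-05), and in chr5:33050001-33100000, inside the fifth longest domain, at 0.87 and 0.82 (adjusted p = 7.10e-05). Over all clones the values of this last window went from 0.57 to 1.78 on musculus and from 0.51 to 1.78 on castaneus, with medians of 1.31 on both.

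Lines with COSN123 in their name, 24 clones, were also set against the other 29 clones. The latter include 6 clones of CR13.4k, CR14.6k and Z.B.C, which also lack all the OSN sites of segment C, so this is a contrast of the COSN123 label and its founder clone and not of the loss of these sites. By limma no member was called, with or without a size of 0.25, where 0.214% of all windows were with that size (0.0381% earlier and 0.176% later with COSN123) and 1.15% without it (0.252% and 0.897%). At an unadjusted p of 0.05 without a size, 69 members were earlier and 63 later with COSN123 (3.14%), against 13.1% of all windows, and none reached 0.25. The smallest adjusted p among members was 0.065. Without these 6 clones, a setting chosen after the data were seen, limma again called no member with or without a size. The fitted differences of members lay between −0.12 and 0.37. Choosing members on a high mean over these same clones leaves less room for a difference between groups of clones. The lack of calls in members is therefore a description only. Founder clone and deletion cannot be told apart in this comparison. The fit also took clones as independent although they are nested in lines, so its p-values may be too small.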

How the data were processed

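E/L Repli-seq profiles of 66 libraries were used, out of 71 in the labels (142 samples, early and late fractions counted separately). The 5 libraries without a column were not analysed here. BrdU-labelled DNA of cells sorted by DNA content into an early and a late fraction was sequenced. The authors trimmed reads with Trim Galore and cutadapt, ran bowtie2 against mm10 with the strain SNPs masked, split the alleles with SNPsplit, dropped duplicates (Samtools) and used bedtools for the read number per 50 kb window. The deposited values are log2 early over late ratios that had been scaled, quantile-normalized (preprocessCore) and smoothed by loess over 300 kb by the authors, with versions not given in the sources used here, and the smoothing makes neighbouring windows dependent. Depth per library is unknown.

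All columns were used. The table calls the alleles genome 1 and genome 2, and genome 1 was taken as musculus because lines labelled as deleted on that strain carry their deletion there. For the tests, repeat libraries were averaged within a clone. Alleles were compared by limma 3.58.1 (lmFit, eBayes, R 4.3.3) on the musculus minus castaneus difference per clone, without the windows of the Dppa2/4 domain, lines by the moderated F-test, and COSN123 lines by a two-group fit, all two-sided, with Benjamini-Hochberg adjustment over all windows and calls at 0.05. The fits were tested on simulated data. Clones are separate CRISPR clones of 1 line, and p-values measure the spread between them. The allele and COSN123 fits did not model which deletion line a clone belongs to. Replicate numbers mark repeat libraries of a clone and pair no samples across lines. Windows were annotated with GENCODE vM21 and the GRCm38.p6 sequence, whose chromosome lengths equal those of the table, and genes were placed by their start. Regions and genes were named by rule (the longest and highest domains, the largest allele differences and SDs, up to 4 genes a list with the highest means). Members, lists and rules were chosen with earlier results of these data known. Python 3.11.15, numpy 2.4.6, pandas 2.3.3 and matplotlib 3.10.9 were used.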

Additional observations from a re-analysis of the deposited data

Results flagged for a closer look

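Among the 2 lines with 4 or 5 clones, 5 measures were checked for a clone far from the others, and chance flags about 1 in 20 such groups. In AOSN.B.COSN123, the windows that were the earliest in clone 1A.4 alone contained 56.8% of the members, whereas the highest of the 5 clones reached 72.0%. In A.COSN123, the median over all windows was 0.12 in clone C9, while the lowest of the 4 clones was at −0.01. The medians over the members themselves, 1.28 to 1.37 in AOSN.B.COSN123 and 1.31 to 1.35 in A.COSN123, held no such clone.

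Of the windows with values in only 1 to 99 columns, 44 (0.904%) had a mean at or above the threshold and would have joined the earliest 10% without the filter. They had values in a median of 85.5 columns, a median GC content of 43.2%, and 30 protein-coding starts, and 21 of them lay beside a member. The highest of these means was 1.82.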

How the results depend on the processing

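The median over columns, clones averaged first, musculus alone and castaneus alone kept 90.5%, 96.7%, 88.2% and 87.7% of the members. With values in at least 50% of the columns or in 130 columns, and with domains joined across 1 window, the median domain length was 200, 100 and 200 kb. The 95th percentile gave 2102 members in 744 domains with a median of 100 kb, 12.1% of chromosome 11 and 10.97% of protein-coding starts, and the 85th gave 6305 members with a median of 250 kb, 30.4% and 35.8%. These follow from the smaller or larger number of windows. With 130 columns, chromosome 11 was at 7.35%. Its windows have at most 130 columns, because 8 columns lack the whole chromosome, so that any further missing value removed a window. Counted over all annotated genes, 17.8% of starts lay in members. The spread between clones in members, 76.0% of that in all windows, was 74.9% by interquartile range.

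Members with an allele difference numbered 748 without a threshold on size and 101 with 0.1 (the latter chosen after seeing the data). At a size of at least 0.25 the count was 0 in every setting, each clone left out included. The rule for members limits these differences, so the repeated 0 is a description only. With the replicate number of the labels as a block, on single libraries, the count at 0.25 stayed 0 and that without a size was 373 (8.87%, against 52.5% of all windows), and 823 without the block (19.6% against 65.0%). The numbers mark repeat libraries of a clone and pair nothing across lines. The cause was not tested. Centring each allele on its median turned the split without a size from 344 earlier on musculus and 404 on castaneus to 583 and 218, so no direction is read from it. Leaving out single clones gave 719 to 767. Between lines, the count went from 354 (without ATSS.BTSS.CTSS, 8.42% against 62.2% of all windows) to 1068 (without COSN1.2.8k, 25.4% against 73.9%). For COSN123, leaving out single clones gave 0 to 1 without a size. Unknown depth limits what a single window can show.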
